A study of Mus musculus with 6 samples.

Results

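The genes described here are 10 members of the Hippo pathway: the coactivators Yap1 and Wwtr1 (which encodes TAZ), the transcription factors Tead1, Tead2, Tead3 and Tead4, the kinases Lats1 and Lats2, and the angiomotin-like genes Amotl1 and Amotl2. They were listed by name with earlier results of these data known, as were the lists of other pathway genes further on. Shares set beside those of all tiles or genes are therefore a description. A 1 kb tile of the genome was counted to a gene when it overlapped the RefSeq span of that gene or the 10 kb on either side, here called its window. This gave 936 of the 1954255 measured tiles, and 10 of the 20341 protein-coding genes whose window held at least 3 tiles. The study measured cytosine methylation by tagmentation-based whole-genome bisulfite sequencing in endothelial cells sorted by flow cytometry from mouse lung. It compared 3 samples from Dnmt3a knockout mice (KO) with 3 samples from wild-type mice (WT), and so asks where methylation depends on Dnmt3a, an enzyme that places methyl groups on unmethylated DNA. The promoter or Cre driver behind the knockout, the part of Dnmt3a removed, and the age and sex of the mice do not appear in the sources used here. Nor do these say whether the samples of a group were separate animals, so a p-value reflects only how far these samples scatter, which may be technical.

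In the Hippo pathway, upstream kinases activate LATS1 and LATS2, which phosphorylate YAP and TAZ and keep them out of the nucleus. Unphosphorylated YAP and TAZ enter the nucleus, bind TEAD proteins at DNA and switch on target genes, while angiomotin-like proteins tether YAP at cell junctions. In endothelium the pathway is known for its part in vessel sprouting, junction remodelling and the response to blood flow. DNA methylation is usually low at CpG-rich gene starts and high in gene bodies. A tile with a mean under 10% over all 6 samples is called an unmethylated valley here.

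Methylation was lower in KO over the whole genome, and every value below has to be read against that. The mean level over all tiles was 63.5 to 63.8% in the KO samples and 68.7 to 69.5% in the WT samples. By limma, with a call set at 10 percentage points or more and an adjusted p below 0.05, 16.2% of all tiles were called lower in KO and 0.0796% higher. Within the windows of protein-coding genes, 19.7% of tiles were called lower. The table holds no read counts, so depth is unknown and counting intervals could not be computed. Noise was shared between adjacent tiles (r = 0.531 to 0.553 between their deviations, across tiles), so tiles of a gene are not independent replicates. Methylation levels do not show which part of Dnmt3a was removed and do not check the genotype labels. Marker genes were read at the listed start or, where none was listed, at the gene end with the lower level, which makes their levels lower. The WT level had a median of 9.95% over 8 endothelial markers (6 with a listed start), 69.6% over 5 leukocyte markers (all 5), 19.1% over 5 epithelial (3) and 10.3% over 5 mesenchymal markers (2). In KO these medians were 7.70, 64.2, 9.04 and 5.35%. The part of a changed cell mix in the results was not tested. In DNA pooled from many cells, a partial loss in every cell and a complete loss in some cells cannot be told apart.

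RefSeq promoter sequences, from 250 bases before to 50 after a listed start on GRCm38.p6 (the assembly that mm10 names), were matched for 8 of the 10 genes; Tead1 and Tead4 had no entry. A pair is shown first because it spans the range of CpG content, the substrate of the methylation measured here. Each runs 5′ to 3′ on the strand of its gene, with every CpG in capitals. The Yap1 promoter (chr9:8004547-8004846, minus strand) held 49 CpGs and the Tead2 promoter (chr7:45215542-45215841, plus strand) held 13, against a median of 14 over 16457 promoters.
Yap1: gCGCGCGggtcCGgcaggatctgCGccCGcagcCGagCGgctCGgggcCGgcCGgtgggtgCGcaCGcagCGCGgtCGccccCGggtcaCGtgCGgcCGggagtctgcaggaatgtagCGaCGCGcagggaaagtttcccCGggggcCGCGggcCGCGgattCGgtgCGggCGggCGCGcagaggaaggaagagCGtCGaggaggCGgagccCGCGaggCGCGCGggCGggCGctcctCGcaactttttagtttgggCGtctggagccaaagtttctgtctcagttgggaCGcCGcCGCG
Tead2: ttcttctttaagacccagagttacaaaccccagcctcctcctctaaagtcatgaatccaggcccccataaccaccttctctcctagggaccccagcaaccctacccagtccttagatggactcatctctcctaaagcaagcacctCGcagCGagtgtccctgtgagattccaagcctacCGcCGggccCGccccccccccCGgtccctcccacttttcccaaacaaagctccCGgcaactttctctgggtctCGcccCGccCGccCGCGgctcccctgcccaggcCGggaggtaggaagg

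The other 6 promoters held 20 (Wwtr1), 21 (Amotl1), 25 (Tead3), 26 (Amotl2), 37 (Lats2) and 42 CpGs (Lats1). A second set is shown because TEAD proteins, the partners of YAP and TAZ, bind the MCAT element, which contains GGAATG. This motif, read on both strands (CATTCC on the other), was found once each in Yap1, Wwtr1, Tead3, Lats2 and Amotl2, which is 5 of the 8 promoters, against 13.2% of all 16457. A match is a description of letters and not a measured site. The motif is in capitals in the promoters of Wwtr1 (chr3:57575861-57576160, minus strand), Lats2 (chr14:57746074-57746373, minus strand) and Amotl2 (chr9:102717554-102717853, plus strand).
Wwtr1: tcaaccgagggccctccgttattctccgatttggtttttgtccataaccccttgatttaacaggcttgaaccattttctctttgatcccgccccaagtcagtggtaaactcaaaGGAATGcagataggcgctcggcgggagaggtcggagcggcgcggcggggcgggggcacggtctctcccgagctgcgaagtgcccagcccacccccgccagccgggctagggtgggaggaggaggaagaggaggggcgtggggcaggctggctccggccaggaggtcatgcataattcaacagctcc
Lats2: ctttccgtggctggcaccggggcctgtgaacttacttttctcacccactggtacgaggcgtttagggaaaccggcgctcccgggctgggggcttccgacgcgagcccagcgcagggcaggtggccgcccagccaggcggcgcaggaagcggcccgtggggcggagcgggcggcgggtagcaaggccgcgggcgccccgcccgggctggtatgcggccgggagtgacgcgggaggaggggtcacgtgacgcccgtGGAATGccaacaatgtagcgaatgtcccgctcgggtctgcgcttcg
Amotl2: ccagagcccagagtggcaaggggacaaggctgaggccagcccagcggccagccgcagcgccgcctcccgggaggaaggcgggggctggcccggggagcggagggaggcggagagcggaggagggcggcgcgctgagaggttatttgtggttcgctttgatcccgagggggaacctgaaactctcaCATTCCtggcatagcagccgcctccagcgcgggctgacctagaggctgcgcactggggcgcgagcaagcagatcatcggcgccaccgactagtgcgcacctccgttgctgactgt

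In Wwtr1 the motif began 136 bases before the start and in Amotl2, on the opposite strand, 65 bases before it. In Lats2 it lay just after the listed start. In all 3 of these genes the tile or tiles over the promoter were unmethylated in both groups, as given further on.

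Across the 10 genes, as over the whole table, losses dominated. Of the 936 tiles, 400 (42.7%) were called lower in KO, against 16.2% of all tiles, and 0 higher, against 0.0796%. At an unadjusted p under 0.05 by limma 0 were higher, against 12334 of all 1954255 tiles. Gains were rare over all tiles too, so their absence is not particular to the members. The KO samples were all below the WT samples in 568 tiles (60.7%), against 31.6% of all tiles. They lay above in 0 tiles, against 1.54% of all tiles. The median tile difference was -8.996 points over the members and -4.05 over all tiles. The window mean was called lower, at an adjusted p under 0.05 and at least 5 points, in 9 of the 10 genes, against 56.6% of all protein-coding genes. By limma 0 member windows were called higher, also at an unadjusted p under 0.05, against 0.0246% of all. With a minimum of 10 points, 6 of the 10 were called, against 16.4%. The KO and WT samples did not overlap in any of the 10 windows, and this was also so in 84.6% of all windows. For each of the 10, the two-sided exact permutation test gave p = 0.1, the smallest that 3 against 3 samples allow.

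**Figure D1:**
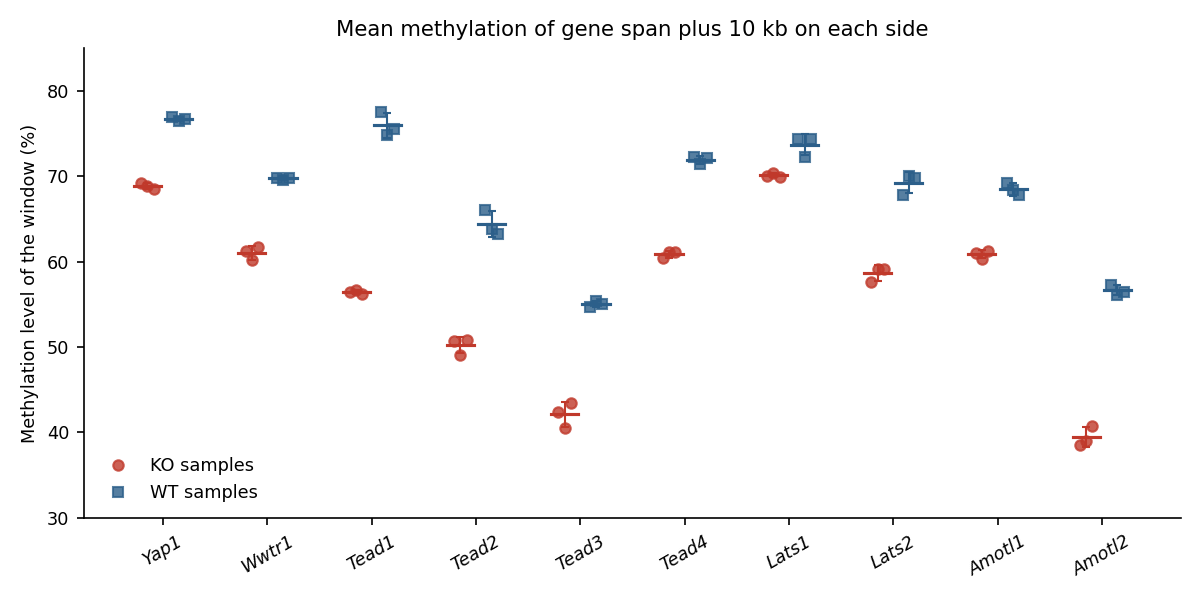
Mean methylation level in percent (vertical axis, which starts at 30%) of the window of each gene, with 1 point per sample (KO circles, WT squares), a bar at the group mean and error bars of 1 SD. All KO points lie below all WT points of the same gene, from a gap of 19.5 points in Tead1 to 3.58 points in Lats1.

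The 2 coactivators carried losses of middling size. YAP and TAZ are related proteins that bind the same TEAD partners. The window of Yap1 (chromosome 9, 7931999 to 8004638 for the gene itself) had levels of 69.2, 68.9 and 68.5% in KO and 76.9, 76.4 and 76.6% in WT. The samples of each group lay within 1 point of each other, and the groups did not overlap. The difference was -7.79 points ± 0.532 (SE, n = 3 per group, adjusted p = 8.83e-07, limma), and 30.2% of all windows lost more. Of its 89 tiles, 17 were called lower (19.1%), a share near that of all protein-coding windows. The longest run of called tiles in Yap1 had 4 tiles (7958001 to 7962000), inside the gene and 42.6 kb from the start. Its level was 30.5% ± 3.75 in KO and 58.8% ± 2.54 in WT (SD, n = 3), and its tile from 7959001 to 7960000 fell from 72.7 to 33.9%. The called tiles of Yap1 formed 8 short runs in all. Smaller differences lay outside them: 83 of the 89 tiles had a lower mean in KO, and the median tile difference was -5.79 points.

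The window of Wwtr1 (chromosome 3, gene at 57455644 to 57575910) had levels of 61.2, 60.1 and 61.7% in KO and 69.8, 69.6 and 69.8% in WT. The groups did not overlap, and the WT samples were almost equal. The difference was -8.72 points ± 0.678 (SE, adjusted p = 1.79e-06, limma). Of its 133 tiles, 45 were called lower (33.8%), in 16 runs spread over the gene and both flanks. The longest run, from 57496001 to 57503000, held 6 called tiles at 61.0% ± 4.97 in KO and 77.5% ± 3.998 in WT. The difference of Yap1 and that of Wwtr1 could not be told apart: they differed by 0.930 points ± 0.550 (SE, two-sided exact permutation test, p = 0.2, n = 3 per group). Wwtr1 also held the tile with the highest positive difference of the 936, from 57565001 to 57566000. It lay at 50.4, 71.1 and 74.9% in KO and 41.0, 59.3 and 62.2% in WT, so the groups overlapped, and its difference of 11.3 points was not called (adjusted p = 0.210, limma).

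The 4 TEAD genes encode the DNA-binding partners of YAP and TAZ, and together they held the largest share of called tiles by role. Of their 418 tiles, 243 (58.1%) were called lower. The same count was 64 of 172 (37.2%) in the angiomotin-like genes, 62 of 222 (27.9%) in the coactivators and 31 of 124 (25%) in the kinases. Tead1 alone gave 246 of the 418 TEAD tiles and 165 of their 243 calls. The shares of Tead2, Tead3 and Tead4 were 46.2, 45 and 45.2%. Of the angiomotin-like genes, Amotl2 had 75.7% called and Amotl1 26.7%. The shares by role are a description of tiles that share genes, and the roles were not tested against each other.

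**Figure D2:**
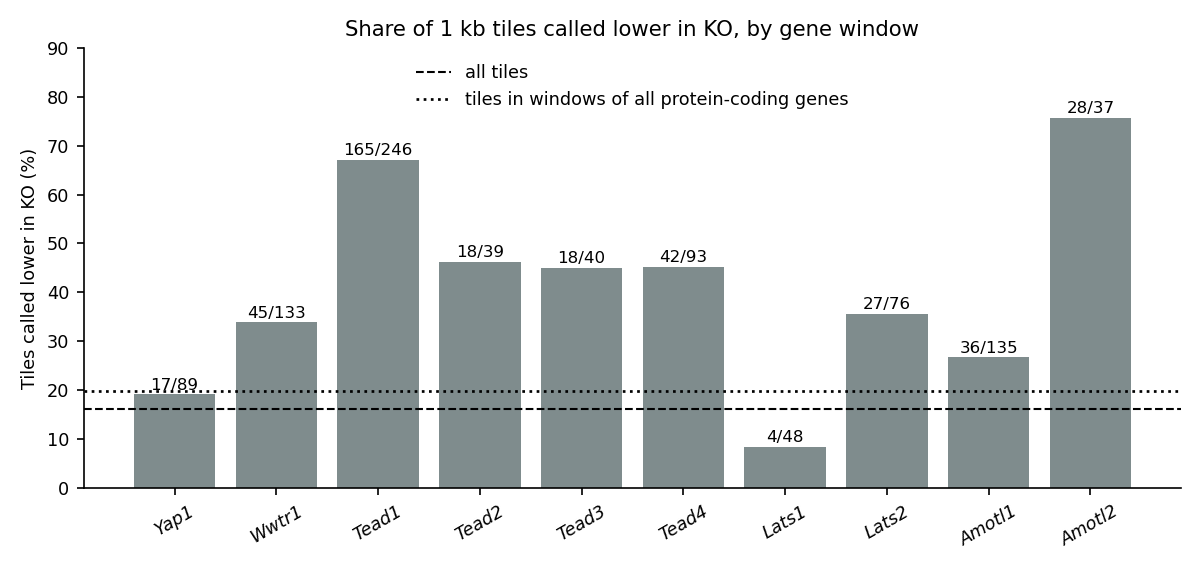
Share of the 1 kb tiles of each gene window called lower in KO (percent, bars from 0, with the counts above them), beside the share over all tiles (dashed line, 16.2%) and over all protein-coding windows (dotted line, 19.7%). Amotl2 and Tead1 are highest, Yap1 lies near the dotted line and Lats1, with 4 of 48 tiles, below both lines.

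Tead1 (chromosome 7, 112679356 to 112906784) lost the most of the 10. Its window had levels of 56.4, 56.7 and 56.2% in KO and 77.5, 74.8 and 75.5% in WT. The highest KO sample lay far below the lowest WT sample. The difference was -19.5 points ± 0.807 (SE, adjusted p = 1.69e-07, limma), and 0.796% of all windows lost more. Of its 246 tiles, 165 (67.1%) were called lower, and 93 of them lost at least 20 points. The called tiles formed 18 runs, of which 9 had 5 or more called tiles, so the loss covered most of the gene body.

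The longest run in Tead1, from 112706001 to 112748000, held 38 called tiles over 42 kb. Its level was 51.7, 48.9 and 50.01% in KO and 78.4, 74.5 and 74.4% in WT. The run from 112680001 to 112703000, at the low-coordinate end of the gene, held 22 called tiles and had the largest mean loss of the runs with 20 or more called tiles. It lay at 28.9, 30.4 and 29.1% in KO and 77.7, 73.0 and 72.5% in WT, again with no overlap. Inside it the tile from 112695001 to 112696000 fell from 92.5% ± 0.743 in WT to 18.1% ± 3.01 in KO (SD, n = 3, adjusted p = 1.99e-10, limma). That tile was almost fully methylated in all WT samples (91.7 to 93.0%) and at 15.01 to 21.03% in the KO samples.

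Losses in Tead1 were larger toward its low-coordinate end. Cut into segments chosen after the values were seen, and so given as a description, the first 25 kb differed by -38.5 points, from 70.4% in WT to 31.8% in KO. The segments from 25 to 50, 50 to 100, 100 to 150 and 150 to 200 kb differed by -22.3, -20.3, -18.5 and -16.9 points. From 200 to 228 kb the difference was -10.6 points, at 71.9% in KO and 82.5% in WT. In 4 tiles of Tead1 the level went from at least 50% in WT to under 10% in KO. An example is the tile from 112719001 to 112720000, at 4.86% in KO and 65.2% in WT. Over all tiles this occurred 1247 times, and among the 10 genes once more, in Amotl2.

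**Figure D3:**
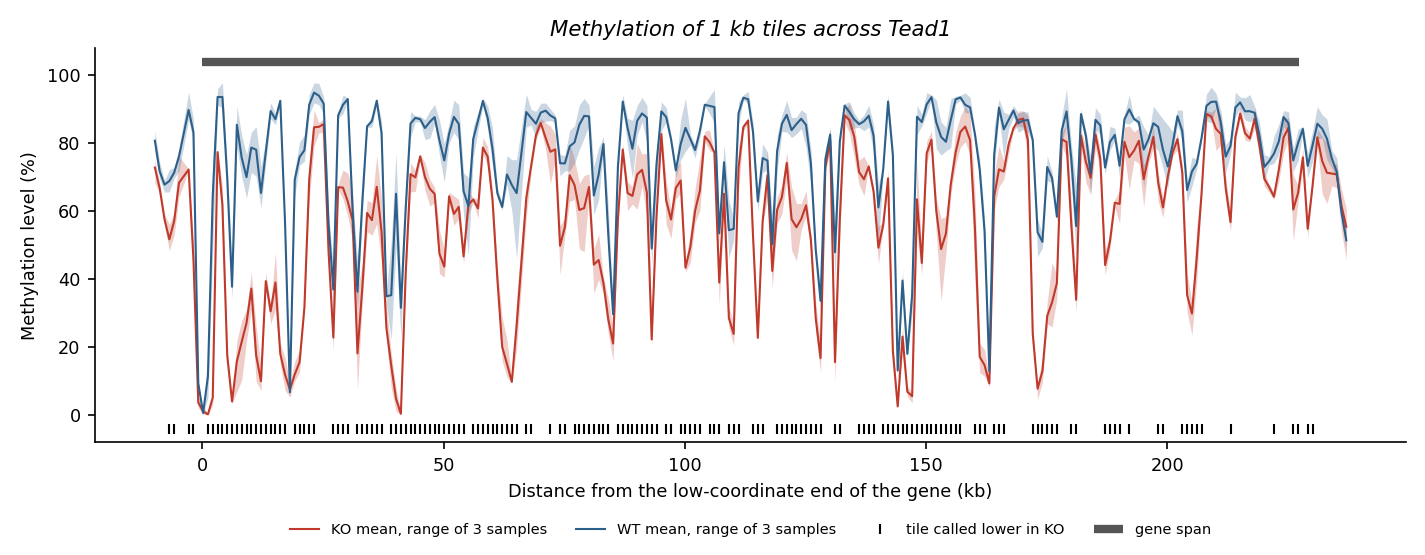
Methylation level in percent of each 1 kb tile against distance in kb from the low-coordinate end of Tead1, with lines at the mean of the 3 KO and 3 WT samples, bands over their range, ticks at tiles called lower and a grey bar over the gene span. The KO line runs below the WT line over most of the gene, with the widest gap in the first 25 kb.

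Tead2 (chromosome 7, 45215792 to 45233468) had window levels of 50.7, 49.1 and 50.8% in KO and 66.1, 63.9 and 63.2% in WT. The groups did not overlap, and the difference was -14.2 points ± 0.977 (SE, adjusted p = 9.19e-07, limma). Most of that lay beside the gene and not in it. All 10 tiles of the downstream flank were called lower, against 4 of 19 in the span and 4 of 10 in the upstream flank. The downstream flank lay at 28.2% ± 0.993 in KO and 54.9% ± 2.08 in WT. The run of 12 called tiles from 45232001 to 45244000 overlapped Tead2 by 1.47 kb, Cd37 by 5.71 kb and Slc6a16 by 3.25 kb. Cd37 encodes a tetraspanin of leukocytes. Over the span of Tead2 alone the difference was -7.86 points ± 1.11 (SE, adjusted p = 0.000317, limma).

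Tead3 (chromosome 17, 28331671 to 28350805) had window levels of 42.4, 40.5 and 43.4% in KO and 54.7, 55.4 and 55.04% in WT. The difference was -12.9 points ± 0.950 (SE, adjusted p = 1.31e-06, limma), with no overlap. The gene itself had 12 of 20 span tiles called lower, and the span lay at 34.2% ± 1.15 in KO and 51.0% ± 0.161 in WT. Each flank had 3 of 10 tiles called: the upstream flank lay at 45.2% ± 4.38 in KO and 53.5% ± 0.223 in WT, and the downstream flank at 54.9% and 64.5%. The longest run, from 28330001 to 28338000, had 7 called tiles at the far end from the start and also covered 1.03 kb of Rpl10a, a ribosomal protein gene. It lay at 28.6, 28.0 and 27.9% in KO and 57.005, 55.4 and 53.3% in WT. All 40 tiles of the Tead3 window had a lower mean in KO. The differences of Tead2 and Tead3 could not be told apart (-1.27 points ± 1.09 between them, two-sided exact permutation test, p = 0.5, n = 3 per group).

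Tead4 (chromosome 6, 128227143 to 128300813) had window levels of 60.4, 61.1 and 61.1% in KO and 72.3, 71.4 and 72.1% in WT. The difference was -11.1 points ± 0.636 (SE, adjusted p = 3.91e-07, limma), again with no overlap. Called tiles made up 42 of 93 (45.2%), in 10 runs, of which 5 had 5 or more called tiles. The longest, from 128274001 to 128284000, had 9 called tiles at 46.3% ± 0.428 in KO and 64.8% ± 2.02 in WT. The difference in Tead1 minus that in Tead4 was -8.42 points ± 0.680 (SE), with no overlap between the groups' values of Tead1 minus Tead4 (two-sided exact permutation test, p = 0.1, n = 3 per group).

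The kinases LATS1 and LATS2 phosphorylate YAP and TAZ, and the losses in their genes differed. Lats1 (chromosome 10, 7681200 to 7716461) had window levels of 70.0, 70.4 and 70.0% in KO and 74.4, 72.3 and 74.4% in WT. The groups did not overlap, but they came within 2 points of each other. The difference was -3.58 points ± 0.697 (SE, adjusted p = 0.000797, limma). It passed the p limit and missed the 5-point minimum, and 72.4% of all windows lost more. After centring or scaling of the samples the sign turned, to 1.31 and 2.23 points, so Lats1 lost less than the table as a whole. Only 4 of the 48 tiles of Lats1 were called lower (8.33%). Of these, 3 lay at the start: 1 just upstream and a pair from 7682001 to 7684000, at 39.2% ± 3.84 in KO and 59.3% ± 3.22 in WT.

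Lats2 (chromosome 14, 57689662 to 57746212), itself a known target of YAP and TEAD, had window levels of 57.6, 59.1 and 59.2% in KO and 67.8, 70.1 and 69.8% in WT. The difference was -10.6 points ± 0.856 (SE, adjusted p = 2.23e-06, limma), with no overlap. Of its 76 tiles, 27 were called lower (35.5%). The longest run, from 57731001 to 57738000, held 6 called tiles at 44.8% ± 4.17 in KO and 67.4% ± 2.77 in WT. The single tile with the largest loss, from 57747001 to 57748000, lay just upstream of the start and fell from 63.0 to 26.2%. That tile also lies in the gene Gm52140, which overlaps 16 tiles of the window, 8 of them called lower. The loss in Lats2 was larger than in Lats1 by 7.03 points ± 1.35 (SE), with no overlap between the groups' values of Lats1 minus Lats2 (two-sided exact permutation test, p = 0.1, n = 3 per group).

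AMOTL1 and AMOTL2 bind YAP, and AMOTL2 also links endothelial junctions to the actin cytoskeleton. Amotl1 (chromosome 9, 14541966 to 14662974) had window levels of 61.0, 60.3 and 61.2% in KO and 69.2, 68.4 and 67.8% in WT. The difference was -7.59 points ± 0.698 (SE, adjusted p = 5.02e-06, limma), with no overlap, and 36 of 135 tiles were called lower (26.7%). The longest run, from 14631001 to 14640000, held 9 called tiles at 55.8% ± 1.55 in KO and 73.3% ± 2.36 in WT.

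Amotl2 (chromosome 9, 102717091 to 102733418), a known target of YAP, had window levels of 38.6, 39.0 and 40.8% in KO and 57.3, 56.1 and 56.5% in WT. The difference was -17.2 points ± 0.904 (SE, adjusted p = 2.83e-07, limma), and 1.67% of all windows lost more. Called tiles made up 28 of its 37 (75.7%), the highest share of the 10 genes. They formed 3 runs: 10 tiles upstream of the gene, 6 inside it and 12 at its far end and beyond. The run of 12 overlapped Amotl2 by 2.42 kb and the long noncoding RNA gene Gm5627 by 4.35 kb.

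The upstream stretch of Amotl2, from 102707001 to 102717000, was called lower in all 10 tiles. It lay at 33.6, 30.9 and 32.7% in KO and 63.0, 62.7 and 61.2% in WT, and the mean difference was -29.9 points. The tile next to the gene, from 102716001 to 102717000, was almost empty in KO, at 0.288, 1.78 and 5.27%, and lay at 56.3, 46.7 and 47.1% in WT (adjusted p = 6.39e-10, limma). It borders the promoter printed above. Over the span of Amotl2 alone the difference was -10.3 points ± 1.16 (SE, adjusted p = 9.05e-05, limma), so its flanks lost more than the gene did. Amotl2 lost more than Amotl1 by 9.60 points ± 0.633 (SE, two-sided exact permutation test, p = 0.1, n = 3 per group, no overlap).

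**Figure D4:**
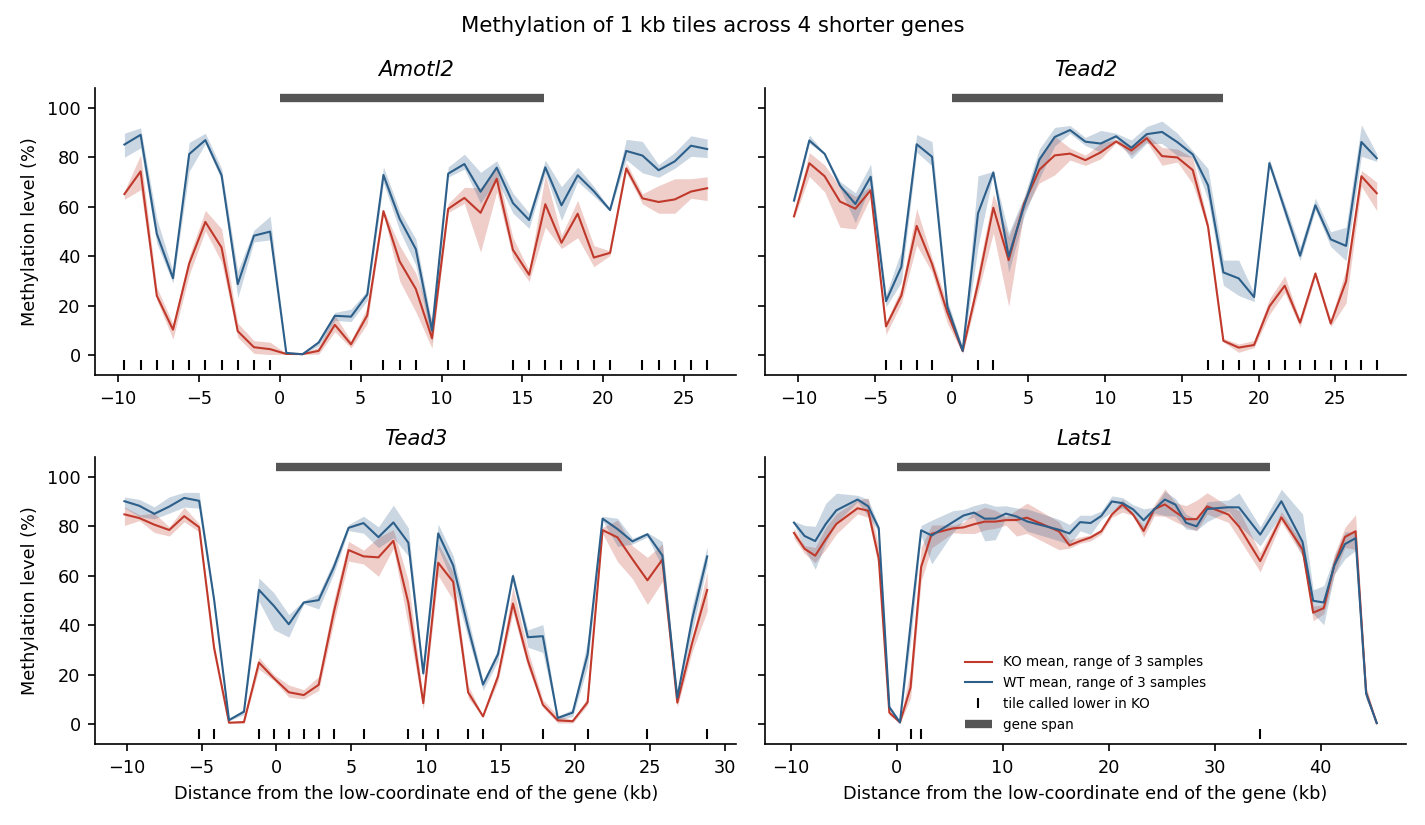
Methylation level in percent of 1 kb tiles against distance in kb from the low-coordinate end of Amotl2, Tead2, Tead3 and Lats1, with lines at group means, bands over the range of 3 samples, ticks at tiles called lower and a grey bar over the gene span. Amotl2 shows the gap on both flanks, Tead2 mostly beyond its high-coordinate end, Tead3 widest in the low-coordinate part of the gene, and in Lats1 the lines nearly coincide.

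In order of the window loss the genes ran Tead1, Amotl2, Tead2, Tead3, Tead4, Lats2, Wwtr1, Yap1, Amotl1, Lats1. Of the 9 neighbouring pairs in this order, 4 were apart in all samples: Tead1 and Amotl2, Amotl2 and Tead2, Tead3 and Tead4, and Amotl1 and Lats1. The other 5 pairs overlapped. Of the 9 pairs with the same role, 7 were apart, and Yap1 with Wwtr1 and Tead2 with Tead3 overlapped. With 3 against 3 samples none of these comparisons could fall below an exact permutation p of 0.1, before any adjustment for their number. Samples centred on their median level, or scaled to one mean level, kept the window calls of 6 genes. They ended those of Yap1 (-2.90 and -1.91 points), Wwtr1 (-3.83 and -3.44) and Amotl1 (-2.70 and -2.37), and turned the difference of Lats1 positive (1.31 points, adjusted p = 0.122, and 2.23 points, adjusted p = 0.0157, limma). The sample medians of the whole table differed by -4.89 points between the groups, and the median over all windows moved from -5.59 to -0.696 after centring and -0.233 after scaling.

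At the starts themselves the differences were small. The tiles over the promoter interval were called lower in 0 of the 8 members with a listed start, against 9.00% of 15572 genes, and higher in 0, against 0.0257%. At an unadjusted p under 0.05 (limma), 2 starts were lower, those of Tead3 and Amotl1, and 0 higher. Both also passed the adjusted limit (adjusted p = 0.0298 and 0.00744, limma) and missed only the minimum of 10 points. In 7 of the 8 the WT level was 5.603% or less, which leaves too little for a call of 10 points. The start of Yap1 lay at 0.888, 1.90 and 1.32% in KO and 0.987, 0.273 and 0.973% in WT. The start of Wwtr1 lay at 0.718% ± 0.238 and 0.963% ± 0.212, that of Lats2 at 0.508% ± 0.348 and 1.24% ± 1.05, and that of Amotl2 at 0.521% ± 0.206 and 0.940% ± 0.273 (KO and WT, SD, n = 3). These 4 starts were near 0 in both groups, and their groups overlapped. Lats1 lay at 2.70% in KO and 3.82% in WT, also with overlap. Tead3 lay at 1.37% ± 0.969 and 3.598% ± 0.335, and the listed start of Amotl1, which is inside the gene, at 1.60% ± 0.375 and 5.603% ± 1.31, both without overlap.

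By the level of its tile, Tead2 was the exception among the starts. Its start, whose promoter is printed above and has the fewest CpGs of the 8, lay at 18.3, 20.6 and 12.99% in KO and 17.7, 19.04 and 22.3% in WT. The groups overlapped, and the difference of -2.39 points ± 2.52 (SE, adjusted p = 0.582, limma) did not pass. The start, at 45215792, lies near the high end of its tile, from 45215001 to 45216000. Most of that tile is upstream of the gene, so the level depends on where the tiles were cut. The next tile inside Tead2, from 45216001 to 45217000, was unmethylated in both groups, at 1.71% in KO and 1.78% in WT. The tile after it lay at 29.05% in KO and 57.4% in WT and was called lower. For Tead1 and Tead4, with no listed start and no strand, the gene end with the lower level was taken. Tead1 had 1.72% ± 0.998 in KO and 7.17% ± 1.94 in WT there. Tead4 had 3.72% ± 0.295 and 13.6% ± 2.10. The difference of Tead4, -9.87 points ± 1.09 (SE, adjusted p = 3.04e-05, limma), fell just short of 10. It was called without KO replicate 2 (-10.006), WT replicate 2 (-10.7) or WT replicate 3 (-10.2).

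Levels were also averaged over the whole tiles that touched 1 kb on either side of the start. These were 3 tiles in each of the 8 genes. Of the 8, 4 were called lower, against 16.5% of all genes with a listed start. By limma 0 were called higher, against 0.0435%. The 4 were Amotl2 (-16.0 points), Tead2 (-15.3), Lats2 (-12.5) and Tead3 (-10.7). In Amotl2, Lats2 and Tead3 most of this came from 1 edge tile (-47.6, -36.8 and -27.7 points). Those edge tiles lay mostly more than 1 kb from the start. The upstream edge tile of Tead2 ended a run of 4 called tiles. The other 4 were not called: Lats1 (-9.22 points, adjusted p = 0.000810), Yap1 (-2.47, adjusted p = 0.0736), Amotl1 (-2.05, adjusted p = 0.0837) and Wwtr1 (-0.955, adjusted p = 0.228). The stretch of adjoining tiles under 10% at the start was compared between the groups. It was wider in every KO sample than in every WT sample in 5 of the 8 genes with a listed start. Over all 15572 listed starts the share was 8.91%, but 5675 of these had no such stretch in any sample, which lowers that share. The stretch was also wider at the less methylated gene ends of Tead1 (low coordinate) and Tead4 (high coordinate). It measured 6, 7 and 6 kb in KO and 3 kb in each WT sample at Amotl2, and 4 kb in each KO and 2 kb in each WT sample at Tead1. At Tead3 it was 3, 4 and 4 kb in KO against 2 kb in WT. At Amotl1 it was 4 kb in KO against 2, 3 and 3 kb in WT. At Yap1, Lats2 and Tead4 it was 3 kb in KO against 2 kb in WT. Wwtr1 stayed at 3 kb and Lats1 at 2 kb in all 6 samples, and the tile over the Tead2 start was above 10% in all 6. The exact permutation test gave p = 0.1 for each of the 7 wider stretches (two-sided, n = 3 per group).

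The share of called tiles differed with the distance to an unmethylated valley. Valleys were set by the mean of all 6 samples, so a loss in KO could itself make a tile a valley. The distances are therefore not independent of the calls, and the shares are a description. Of the 38 member tiles that were themselves valleys, 3 were called lower (7.89%). In tiles 1 to 2 kb from a valley, 60 of 88 were called (68.2%), with mean levels of 38.8% in KO and 57.9% in WT. At 3 to 5 kb it was 62 of 106 (58.5%), at 6 to 10 kb 60 of 142 (42.3%) and at 11 to 20 kb 56 of 164 (34.1%). From 21 to 50 kb the share was higher again, at 129 of 301 (42.9%). The shares over all tiles at these 6 distances were 3.25, 46.5, 32.4, 27.0, 23.7 and 20.5%. Beyond 50 kb, 30 of 97 member tiles were called (30.9%), against 9.60% of all tiles. At each distance the members' share was higher than that over all tiles, and the members' tiles at each distance come from few genes. By WT level, 0 of 29 member tiles under 10% were called (limma), where no loss of 10 points is possible. From 10 to 50% it was 59 of 109 (54.1%, against 26.8% of all tiles), from 50 to 80% 186 of 380 (48.9%, against 13.7%) and from 80% up 155 of 418 (37.1%, against 20.7%). The WT level is part of the difference that is called, so these shares are also not independent of the calls.

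**Figure D5:**
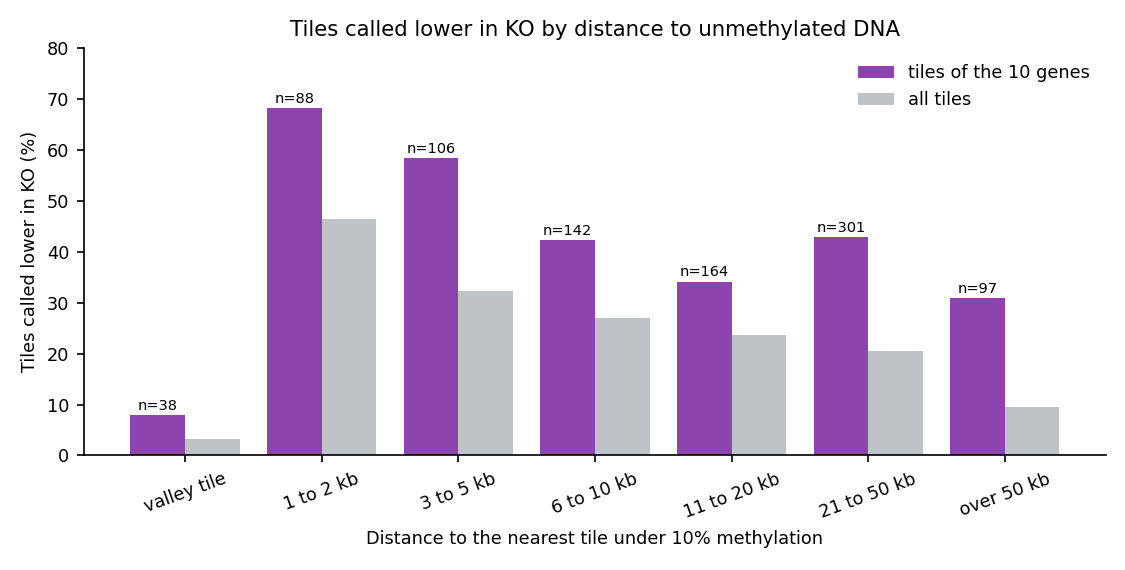
Share of 1 kb tiles called lower in KO (percent, bars from 0) by distance in kb to the nearest valley, for tiles of the 10 genes (purple, with their number) and all tiles (grey). A valley is a tile with a mean under 10% over all 6 samples, KO included. Both are lowest in the valleys and highest at 1 to 2 kb, at 68.2% for the 10 genes and 46.5% for all tiles.

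In the 8 genes with a listed start, 32 of 75 upstream flank tiles (42.7%), 133 of 447 span tiles (29.8%) and 28 of 75 downstream flank tiles (37.3%) were called lower. Over all genes with a listed start these shares were 22.3, 19.6 and 20.2%. The flank shares of the 8 rested largely on 2 genes. Amotl2 had 10 of 10 upstream and 9 of 10 downstream tiles called, and Tead2 had 4 of 10 and 10 of 10. Downstream, 0 tiles were called in Yap1, Lats1 and Amotl1. The listed start of Amotl1 is inside the gene, so its upstream flank does not border that start. In the spans of the other 2 genes, 159 of 227 tiles were called in Tead1 and 34 of 73 in Tead4.

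Most of the other pathway genes were lower in KO as well. Of 24 upstream genes and regulators listed for this comparison, 23 were in the table (Amot, on the X chromosome, was not analysed here), and 19 of the 23 windows were called lower and 0 higher (0 also at an unadjusted p under 0.05, limma), against 56.6% and 0.0246% of all windows. Their median difference was -7.65 points, against -5.59 over all windows and -10.8 over the 10 members. The largest was in Ajuba, a LIM protein that restrains LATS kinases, at 50.6% ± 0.531 in KO and 64.6% ± 0.397 in WT (SD, n = 3). Dchs1, a large cadherin, differed by -13.3 points, Vgll4, a competitor of YAP for TEAD, by -12.2, Limd1, another LIM protein, by -12.2, and Ptpn14, a phosphatase that binds YAP, by -11.7. The core kinases Stk3 (-5.83) and Stk4 (-5.60) and their adaptor Sav1 (-7.65) were called lower as well. The 4 not called were Mob1a (-4.25), Mob1b (-4.23), Vgll3 (-0.259) and Vgll2 (-0.203).

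Of 22 known YAP and TEAD target genes, 21 windows were called lower and 0 higher, against 56.6% and 0.0246% of all windows. Their median was -8.98 points, against -5.59 over all windows. Nuak2, a kinase, lay at 39.4% ± 1.35 in KO and 59.8% ± 0.822 in WT, and Ccn1, a secreted matricellular protein, at 44.8% ± 0.559 and 63.2% ± 0.794. Arhgef17 (-18.0 points), Tgm2 (-15.5) and Gadd45a (-14.7) followed. Nt5e (-2.08 points) was the 1 target not called. After centring or scaling of the samples, 5 and 5 of the 23 regulators and 10 and 11 of the 22 targets were called lower, against 17.1 and 17.0% of all windows, and 0 of either list higher.

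The genes most like Yap1 over the 6 window levels, by Euclidean distance, were Atp13a3 (0.883 points), Eif2ak4 (0.973) and Man1a (0.986). Those most like Wwtr1 were Lect2 (0.611), Clca2 (0.630) and Rbp7 (0.987). The measure compares mean levels only, over 6 samples.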

How the data were processed

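Methylation was measured in 3 KO and 3 WT samples of sorted lung endothelial cells, from 30 ng of DNA and 3 libraries per sample, per the labels' protocols. The submitters' processing notes name BWA 0.7.8 and mm10. The table deposited by the authors gives the methylation level of 1 kb tiles as a fraction between 0 and 1, per the file headers. How it was called, smoothed or filtered by coverage is not given in the sources used here. Fractions were turned into percent.

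Samples were grouped by the genotype in their labels. Tiles, gene windows and gene starts were each tested over the whole table with limma 3.58.1 (R 4.3.3), with a variance trend and Benjamini-Hochberg adjustment over all features of a kind. Calls needed an adjusted p under 0.05 and 10 points, or 5 for windows. Called tiles with a gap of at most 1 kb formed runs. Single values were compared by a two-sided exact permutation test. The fit was tested on simulated data. Gene spans and promoter sequences came from RefSeq tables of GRCm38.p6. The members and lists were chosen with earlier results of these data known.

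The text names all 10 members, the longest run and the tile with the largest difference in each window, up to 5 called genes of each list, and the 3 genes most like Yap1 and Wwtr1. Other runs, segments and list genes were named after their values were seen. The alternatives were no variance trend, a logit scale, centring, scaling, other size limits, 2 kb bins, other flanks, low tiles left out, a replicate block and each sample left out. Whether the replicate numbers pair samples is not stated in the labels. Same-numbered KO and WT samples had deviations correlated at r = -0.00321 to 0.0110 across tiles, and other-numbered ones at -0.0104 to 0.00449. Such values do not settle how the samples were handled.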

Additional observations from a re-analysis of the deposited data

How the results depend on the processing

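The 400 tiles called lower became 239 after centring samples on their median, 235 after scaling to one mean level and 170 with a minimum of 20 points. The tiles called higher went from 0 to 1 after centring (in Wwtr1) and 3 after scaling (1 each in Wwtr1, Tead4 and Amotl1). Leaving out 1 sample at a time gave 345 to 388 tiles lower and 0 to 1 higher, the 1 being in Wwtr1 without KO replicate 1. The cause of these changes was not tested, except that a larger minimum admits fewer tiles. With a replicate block, 400 tiles were lower, 0 higher and 9 windows lower, so the block changed no such count. The other alternatives gave 326 to 464 tiles lower and 0 higher. The logit scale, the 2 kb bins and the fit with low tiles left out were applied to tiles only. Of the 10 window differences, 6 kept their direction and their side of the limit under the 12 alternatives fitted to windows. The call was lost after centring or scaling in 3. That of Lats1 turned to 1.31 points after centring and 2.23 after scaling. At the starts, centring turned the difference positive in Wwtr1 (4.65), Tead2 (2.50), Tead3 (2.67), Lats1 (3.78), Lats2 (4.16), Amotl1 (0.887) and Amotl2 (4.47), since it shifts KO against WT by the same amount in every tile. Over the 3 whole tiles touching 1 kb on either side, Yap1 turned to -2.47. Unknown depth limits every single-tile value.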
